A study of Homo sapiens with 10 samples.

Results

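Cyclin-dependent kinase inhibitors were described in PC-3, a prostate cancer line of human origin, after exposure to the flavonoid luteolin, to the EGFR inhibitor gefitinib or to both. The 8 genes were found by their names on the array, namely CDKN2A, CDKN2B, CDKN2C and CDKN2D of the INK4 family, CDKN1A, CDKN1B and CDKN1C of the CIP/KIP family, and CDKN3. They were 8 of 19718 genes tested and had 12 of the 41000 probes, on 39 spots. The values come from 10 single-color Agilent arrays, with 2 arrays, labelled as biological replicates, for each of 5 groups. The groups were cells before any addition (0 h) and cells 24 h after the addition of DMSO, the vehicle, of 60 µM luteolin, of 60 µM gefitinib or of both drugs (L+G), each dissolved in DMSO. All were unsorted cultures of 1 cell line, so fewer cells of a kind and less RNA per cell cannot be told apart.

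Progress through the cell cycle is driven by cyclin-dependent kinases (CDKs) bound to cyclins, and the inhibitors hold these kinases back. INK4 proteins bind CDK4 and CDK6 and keep cyclin D from activating them, which leaves the retinoblastoma protein able to hold E2F factors. CIP/KIP proteins bind a wider range of cyclin and CDK complexes, CDK2 with cyclin E or A among them. CDKN3 differs from both families in being a phosphatase that removes the activating phosphate of CDK2, and its own transcript is known to peak in dividing cells.

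For the 6 drug-treated arrays the name of the deposited scanner file carried another treatment than the sample labels. The file names gave gefitinib for the Luteolin label, both drugs for the Gefitinib label and luteolin for the L+G label. Groups below follow the labels and are called the Luteolin, Gefitinib and L+G arrays, and for each inhibitor whose call against DMSO or 0 h ends under the file names the values by that naming are given. A comparison of the mean of all drug-treated arrays with DMSO is the same under either naming. Signals were scaled to the 75th percentile of each array, which ran from 539.8 to 1402 and was 650.7 and 628 on the Gefitinib arrays. The level of a probe is given below as its signal in percent of that percentile. Arrays of some groups are said below to lie above or below others on this scaled level. The share of all genes that separate alike was not counted. All 8 main probes, the brightest of each gene, were well above background on 10 of 10 arrays and saturated on 0. The epithelial markers KRT8, KRT18, KRT19 and EPCAM and the mesenchymal filament gene VIM were also well above background on 10 of 10 arrays. Of 7 listed markers of other cells 4 were tested, of which CD3E of T cells, PECAM1 of endothelium and ACTA2 of smooth muscle were well above background on 10 arrays and COL1A1 of fibroblasts on 9, with signals from 14.4 to 292, and the leukocyte marker PTPRC and the fibroblast marker DCN were not kept. Against DMSO, CD3E (1.25) rose in the Gefitinib arrays and ACTA2 (1.04) in the Luteolin arrays, and COL1A1 fell (-2.22 and -1.54) in the Gefitinib and L+G arrays, on the log2 scale, and their part in the results was not tested. KLK3, the gene of prostate-specific antigen, had 1 of its 3 probes kept, with a signal from 13030.3 to 22098 on all 10 arrays, and it rose by 1.36 in the Gefitinib arrays, as KRT8 did by 1.07.

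Promoter sequence from RefSeq (GRCh38.p14) was at hand for 7 of the 8 genes, with 10 start sites. The 250 bases before the start are shown for CDKN2B, the member with the largest rise, for CDKN1A, which rose in all drug-treated groups, and for CDKN3, which fell in the Luteolin and L+G arrays. Capitals mark every match to the motifs searched on both strands, which were the SP1 box GGGCGG, the CCAAT box CCAAT, the CHR element TTTGAA of genes active late in the cycle, the E box CACGTG, the FOXO site GTAAACA, the SMAD box GTCTAGAC, the E2F sites TTTGGCGC and TTTCCCGC, the CRE TGACGTCA and the ATF4 site TGATGNAA.
CDKN2B, chr9:22009306-22009555, minus strand: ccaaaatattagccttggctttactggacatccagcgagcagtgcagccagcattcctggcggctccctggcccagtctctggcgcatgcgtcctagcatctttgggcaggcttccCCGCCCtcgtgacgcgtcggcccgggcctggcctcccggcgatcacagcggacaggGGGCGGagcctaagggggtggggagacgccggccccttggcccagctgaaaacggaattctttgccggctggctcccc
CDKN1A, chr6:36678464-36678713, plus strand: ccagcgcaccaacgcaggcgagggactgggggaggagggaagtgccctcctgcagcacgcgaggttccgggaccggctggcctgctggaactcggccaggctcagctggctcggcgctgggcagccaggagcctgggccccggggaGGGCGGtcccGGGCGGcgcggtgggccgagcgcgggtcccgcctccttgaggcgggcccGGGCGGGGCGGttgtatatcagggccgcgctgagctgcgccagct
CDKN3, chr14:54396757-54397006, plus strand: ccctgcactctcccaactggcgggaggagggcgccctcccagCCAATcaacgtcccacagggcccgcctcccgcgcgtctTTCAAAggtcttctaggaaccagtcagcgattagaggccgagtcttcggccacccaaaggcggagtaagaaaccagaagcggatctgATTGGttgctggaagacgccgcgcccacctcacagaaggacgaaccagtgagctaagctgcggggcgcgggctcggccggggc
The CDKN2B window held 2 SP1 boxes, 134 and 78 bases before the start, and the CDKN1A window held 4, of which the last 2 overlap. SP1 boxes were in 42.6% of all 35116 RefSeq windows of this length. The CDKN3 window held no SP1 box. It held a CHR element 170 bases before the start, which 13.3% of all windows hold, and 2 CCAAT boxes, which 32% hold. Matches to the FOXO, SMAD, E2F, CRE and ATF4 letters were not present in any of the 10 windows.

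With all drug-treated arrays set against DMSO, the inhibitors moved in both directions. CDKN1A, CDKN1B, CDKN1C, CDKN2A and CDKN2B rose and CDKN2C fell, by limma with Benjamini-Hochberg adjustment at an adjusted p under 0.05 and at least 2-fold. The 5 that rose of 8 stand beside 6.7% of all genes tested, and the 1 that fell beside 5.03%. The median log2 change of the 8 genes was 1.16, against 0.10 over all genes tested. CDKN2D was at 0.61 and CDKN3 at -0.96, both with an adjusted p under the threshold (0.0307 and 0.00351) and under 2-fold. Without DMSO replicate 1 the members called were 2, and without DMSO replicate 2 they were 3. Without scaling between arrays, the median of all genes was at -0.64. There 1 member rose, CDKN2B (2.01), and 2 fell, CDKN2C (-1.85) and CDKN3 (-1.71), so that falls outnumbered rises. The share of all genes called in that setting was not computed. CDKN1A, CDKN1B, CDKN1C and CDKN2A were then at 0.92, 0.33, 0.50 and 0.60.

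In the Luteolin arrays, CDKN1A, CDKN1C, CDKN2A and CDKN2B rose against DMSO and CDKN2C and CDKN3 fell, beside 7.22% of all genes that rose and 6.17% that fell. In the Gefitinib arrays, 5 rose, the same 4 and CDKN1B, and CDKN2C fell, beside 15.6% and 14.3% of all genes. In the L+G arrays, CDKN1A, CDKN1B, CDKN2A and CDKN2B rose and CDKN3 fell, beside 12.1% and 7.69%. The median log2 change of the 8 genes was 1.03, 1.33 and 1.00 in these groups, and that of all genes tested was 0.08, 0.22 and 0.16. These comparisons share the DMSO arrays. The 5 called in L+G became 3 without DMSO replicate 1 or without L+G replicate 2. Without scaling between arrays, where the median of all genes moved to -0.82 in Gefitinib and -0.78 in L+G, CDKN2C alone was called in Gefitinib, as a fall, and in L+G CDKN2B rose and CDKN2C and CDKN3 fell. CDKN1A, CDKN1B, CDKN1C, CDKN2A and CDKN2B were then at 0.33, 0.26, 0.84, 0.61 and 0.66 in Gefitinib, and CDKN1A, CDKN1B and CDKN2A at 0.71, 0.23 and 0.15 in L+G. Under the file names the same values belong to gefitinib, to both drugs and to luteolin, in that order.

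**Figure D1:**
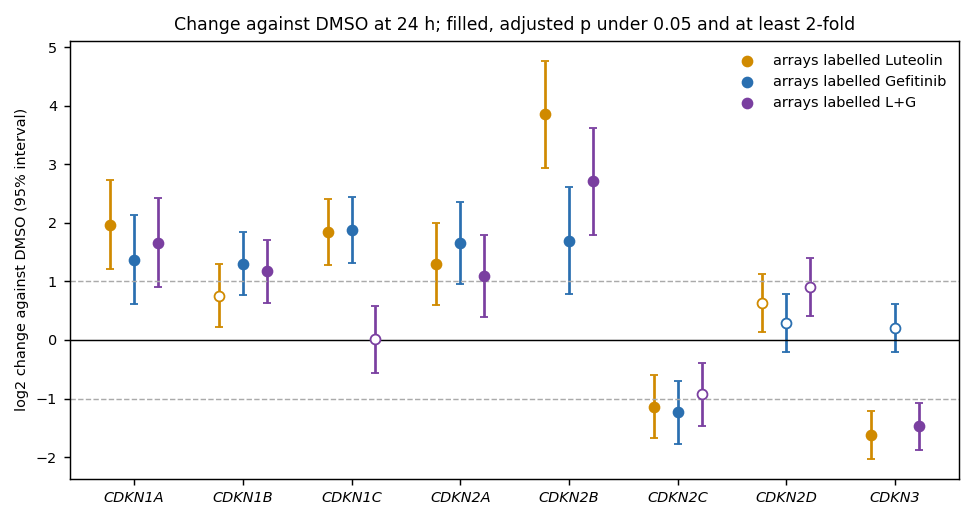
The log2 change against DMSO (vertical axis) is plotted for each of the 8 genes (horizontal axis) in the 3 drug-treated groups, with 95% intervals, and filled points passed the threshold. CDKN2B in the Luteolin arrays stands highest at 3.86, CDKN2C lies below 0 in all 3 groups, and CDKN1C in the L+G arrays lies at 0.01.

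CDKN2B encodes p15INK4b, an inhibitor of CDK4 and CDK6 best known as a target of TGF-beta signalling. Its level was 40.1% and 52.6% of the 75th percentile at 0 h, 69.6% and 76.1% with DMSO, 829% and 1338% in the Luteolin arrays, 328% and 169.8% in the Gefitinib arrays, and 349.7% and 650.3% in the L+G arrays. All 6 drug-treated arrays lay above all 4 others, and both Luteolin arrays lay above both arrays of each other group. The rise over DMSO was 3.86 ± 0.40 on the log2 scale (SE, n = 2 arrays a group), or 14.5-fold, in the Luteolin arrays (limma, adjusted p = 0.000832). It was 1.70 ± 0.40 in the Gefitinib arrays (adjusted p = 0.00843) and 2.71 ± 0.40 in the L+G arrays (adjusted p = 0.00243). Without Gefitinib replicate 1 the change in that group was 1.22 with an adjusted p of 0.0514. Within the first slide, which held 1 array of each of these groups, the differences from DMSO were 3.57, 2.24 and 2.33. Gefitinib replicate 2 lay on a slide with no DMSO array, where it was 2.08 above the 0 h array.

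The second CDKN2B probe, 21998979-21999038 on chromosome 9 of hg18, lies apart from the first at 21994945-21995004, and both are on the minus strand. It moved the same way as the first, by 3.47, 1.08 and 1.99 in the Luteolin, Gefitinib and L+G arrays, each past the threshold. The neighbours of CDKN2B and CDKN2A on chromosome 9 that were tested were MTAP, DMRTA1 and ELAVL2. DMRTA1, a transcription factor gene, rose by 1.75 in the Luteolin arrays, and MTAP was at -0.60 and ELAVL2 at -0.08 there, under the threshold.

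CDKN2A encodes p16INK4a and, from another first exon, p14ARF, and both its probes are assigned to the same transcript record, NM_058197. They lie at 21958039-21958098 and 21957780-21957839 on the minus strand of chromosome 9 (hg18), and the products were not separated here. The level of the first probe was 1023% and 1338% at 0 h, 1157% and 1339% with DMSO, 2822% and 3311% in the Luteolin arrays, 4146% and 3679% in the Gefitinib arrays and 1888% and 3759% in the L+G arrays. On the scaled level all drug-treated arrays lay above all others, with the L+G arrays farthest apart. Before scaling, the signal of L+G replicate 1 (16326) was below that of DMSO replicate 2 (17185). The rise over DMSO was 1.30 ± 0.31 in the Luteolin arrays, 1.65 ± 0.31 in the Gefitinib arrays and 1.10 ± 0.31 in the L+G arrays (SE, n = 2; limma, adjusted p = 0.0174, 0.00342 and 0.0234). The L+G call was lost without L+G replicate 2 (0.60, adjusted p = 0.088), without DMSO replicate 1 or 2 (adjusted p = 0.115 and 0.0758) and in a fit of only the groups compared (0.0653). With quantile normalization the Gefitinib change was 0.97, under 2-fold, and the L+G change was 0.74, while with normexp the latter was 0.99 and with the median of the array 0.97, all under 2-fold. The Luteolin call was lost without DMSO replicate 1 or 2 or without Luteolin replicate 2 (adjusted p = 0.105, 0.0679 and 0.11). The second probe, on 10 spots, gave 0.93, 1.63 and 1.29, of which the first was under 2-fold.

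CDKN2C, which encodes p18INK4c, went the other way. Its level was 678% and 697% at 0 h, 867% and 829% with DMSO, 475% and 313% in the Luteolin arrays, 356% and 364% in the Gefitinib arrays and 529% and 375% in the L+G arrays. Every drug-treated array lay below every other array. It fell by 1.14 ± 0.24 in the Luteolin arrays and by 1.23 ± 0.24 in the Gefitinib arrays (SE, n = 2; limma, adjusted p = 0.0104 and 0.00377). In the L+G arrays the change was -0.93 ± 0.24 (adjusted p = 0.0166), under 2-fold. The Luteolin call was lost without Luteolin replicate 2 (-0.83, adjusted p = 0.0763) and without DMSO replicate 1 or 2 (adjusted p = 0.0702 and 0.06), and without scaling it was at -1.39 with an adjusted p of 0.0504. By the file names the change under 2-fold (-0.93) is that of luteolin, and the falls are those of gefitinib and of both drugs. The single probe lies at 51212781-51212840 on chromosome 1 (hg18).

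CDKN2D, which encodes p19INK4d, passed the threshold against DMSO in none of the 3 groups. Its level was 254% and 258% at 0 h, 429% and 387% with DMSO, 517% and 774% in the Luteolin arrays, 551% and 448% in the Gefitinib arrays and 805% and 716% in the L+G arrays. On the scaled level the drug-treated arrays all lay above the DMSO arrays, and the DMSO arrays above those at 0 h. Before scaling, the Gefitinib signals (3586 and 2812) and that of L+G replicate 2 (3863) were below those of DMSO (5790 and 4960). The changes against DMSO were 0.64, 0.29 and 0.90 (limma, adjusted p = 0.0643, 0.29 and 0.014). Against 0 h the same gene rose by 1.31 in the Luteolin arrays and 1.57 in the L+G arrays (adjusted p = 0.00356 and 0.00192). In the Gefitinib arrays it was at 0.96, under 2-fold, a value that the file names give to both drugs together. Its single probe lies at 10538226-10538285 on chromosome 19 (hg18), minus strand.

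**Figure D2:**
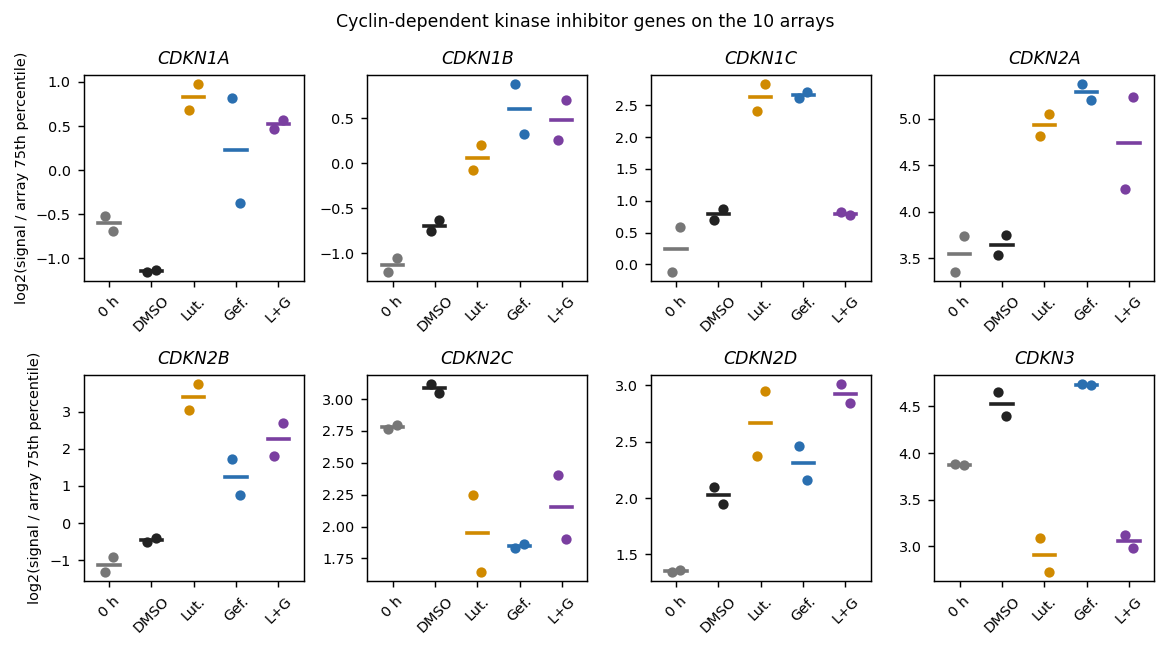
The log2 ratio of the signal to the array's 75th percentile (vertical axes, a scale of its own for each gene) is plotted for the main probe of each gene on all 10 arrays in the 5 groups, with points for arrays and lines for group means. CDKN2C lies lower in every drug-treated array than in DMSO, CDKN1C is high in both single-drug labels only, and the 2 Gefitinib arrays of CDKN1A lie apart, at 0.82 and -0.37.

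CDKN1A encodes p21, an inhibitor that binds cyclin-CDK complexes and also PCNA. The level of its main probe was 69.5% and 62.2% at 0 h, 45.1% and 45.7% with DMSO, 160.05% and 197% in the Luteolin arrays, 177% and 77.5% in the Gefitinib arrays and 138% and 149% in the L+G arrays. On the scaled level all drug-treated arrays lay above all others, and Gefitinib replicate 2 lay nearest to the 0 h arrays. Before scaling this order did not hold. The signal of Gefitinib replicate 2 (487) was then below those of DMSO (608 and 586) and of 0 h (975 and 732). The rise over DMSO was 1.97 ± 0.33, 1.37 ± 0.33 and 1.66 ± 0.33 in the Luteolin, Gefitinib and L+G arrays (SE, n = 2; limma, adjusted p = 0.00456, 0.00969 and 0.0072). Without Gefitinib replicate 1 the second was 0.77, under 2-fold. Gefitinib replicate 2 was 0.16 above the 0 h array of its slide, which held no DMSO array. The main probe lies at 36762684-36762743 on chromosome 6 (hg18). The second probe, NM_078467 at 36760156-36760215 there, gave 2.22, 1.50 and 2.06, and was well above background on 9 of 10 arrays.

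CDKN1B encodes p27, which is controlled in large part by protein breakdown. Its level was 43.4% and 48.1% at 0 h, 59.3% and 64.4% with DMSO, 94.5% and 115% in the Luteolin arrays, 184% and 125% in the Gefitinib arrays and 119.6% and 162% in the L+G arrays. On the scaled level the drug-treated arrays lay above all others. Before scaling, the signal of Gefitinib replicate 2 (788) was below those of DMSO (800 and 826). The change against DMSO was 0.75 ± 0.24 in the Luteolin arrays (SE, n = 2; limma, adjusted p = 0.0474), under 2-fold, and it rose by 1.30 ± 0.24 in the Gefitinib arrays and 1.17 ± 0.24 in the L+G arrays (adjusted p = 0.0031 and 0.0072). The L+G call was lost without DMSO replicate 1 (adjusted p = 0.0501) and without L+G replicate 2 (0.95, under 2-fold). Both calls were lost without scaling, at 0.26 and 0.23 (adjusted p = 0.431 and 0.487). By the file names the change under 2-fold (0.75) is that of gefitinib, and the rises are those of both drugs and of luteolin. The main probe lies at 12766207-12766266 on chromosome 12 (hg18), and the second, at 12762386-12762445, gave 0.59, 1.87 and 1.45. On that probe the Luteolin arrays were below the Gefitinib arrays (log2 difference -1.28, adjusted p = 0.00376), where the first gave -0.54 (adjusted p = 0.0756).

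**Figure D3:**
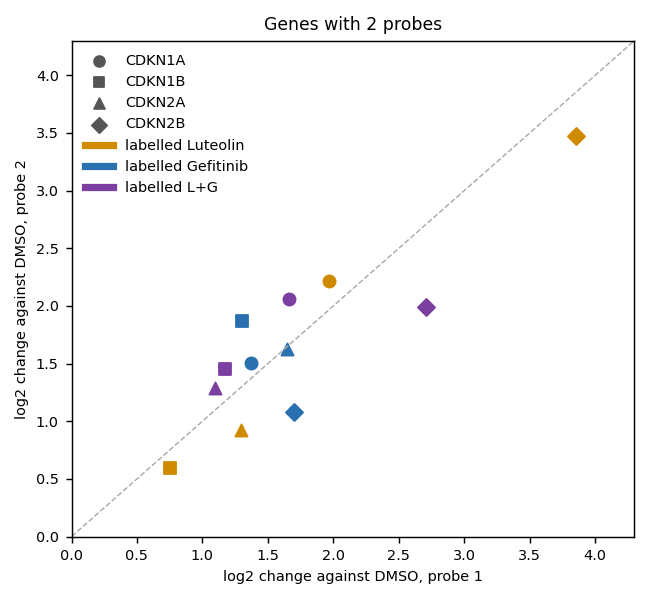
The log2 change against DMSO of the second probe (vertical axis) is plotted against that of the first (horizontal axis) for the 4 genes with 2 probes in the 3 drug-treated groups, with the line of equal change dashed. All 12 points lie above 0 on both axes, and CDKN2B in the Luteolin arrays lies farthest out, at 3.86 and 3.47.

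CDKN1C, which encodes p57, rose in 2 of the 3 drug-treated groups and not in the other. Its level was 92.5% and 151% at 0 h, 162% and 184% with DMSO, 534% and 714% in the Luteolin arrays, 612% and 654% in the Gefitinib arrays and 176% and 170.4% in the L+G arrays. On the scaled level the L+G arrays lay between the DMSO arrays, and the 4 arrays of the other drug-treated groups lay above all others. Before scaling, the L+G signals (1525 and 920) were below those of DMSO (2184 and 2356). The rise over DMSO was 1.84 ± 0.25 and 1.88 ± 0.25 in the Luteolin and Gefitinib arrays (SE, n = 2; limma, adjusted p = 0.00187 and 0.000893). In the L+G arrays the change was 0.01, with a 95% interval from -0.56 to 0.58. Under the file names the drug without a rise is luteolin, and both gefitinib and the combination show one. Its single probe lies at 2861479-2861538 on chromosome 11 (hg18), minus strand.

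CDKN3 fell against DMSO in the Luteolin and L+G arrays, and against 0 h its changes there were under 2-fold. Its level was 1472% and 1460.2% at 0 h, 2521% and 2112% with DMSO, 848% and 661% in the Luteolin arrays, 2670.4% and 2658% in the Gefitinib arrays and 871% and 790.2% in the L+G arrays. On the scaled level the Luteolin and L+G arrays lay below all others, and both Gefitinib arrays lay above all others. Before scaling, the Gefitinib signals (17375 and 16702) were below those of DMSO (34026 and 27106). At 0 h the signals were 20634 and 17188. The change against DMSO was -1.62 ± 0.18, 0.21 ± 0.18 and -1.48 ± 0.18 in the Luteolin, Gefitinib and L+G arrays (SE, n = 2; limma, adjusted p = 0.00097, 0.346 and 0.00133). Under the file names the combination is the treatment without a fall. Its single probe spans 53948134-53952385 on chromosome 14 (hg18), a span longer than the probe itself.

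The differences between drug-treated groups were tested themselves. Between the Luteolin and Gefitinib arrays 2 of 8 members differed, beside 36.6% of all genes tested, with CDKN2B higher by 2.16 and CDKN3 lower (-1.83) in Luteolin (limma, adjusted p = 0.00226 and 0.000142). In the L+G arrays against the Luteolin arrays 2 differed, beside 21% of all genes, with CDKN1C at -1.83 and CDKN2B at -1.14 (adjusted p = 0.00134 and 0.0488). In L+G against Gefitinib 2 differed, beside 27% of all genes, with CDKN1C at -1.87 and CDKN3 at -1.68 (adjusted p = 0.000617 and 0.000226). These shares lie close to or under the background. The CDKN2B difference between L+G and Luteolin was lost with a replicate block, with no filter on dim probes, in a fit of only the groups compared, and without Ctrl, DMSO or Luteolin replicate 1 or 2 or L+G replicate 1, with adjusted p from 0.0543 to 0.244. For L+G against Luteolin the second CDKN2B probe gave -1.48 (limma, adjusted p = 0.00936), and it was not fitted by itself under other settings. Under the file names each of the differences named here moves to another pair of treatments.

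The interaction of the drugs is the change with L+G minus the sum of the changes with each drug, all against DMSO on the log2 scale. It passed an adjusted p under 0.05 in 5 of 8 members, beside 34.2% of all genes tested. It was -3.71 ± 0.35 for CDKN1C, -2.84 ± 0.56 for CDKN2B, -1.85 ± 0.43 for CDKN2A and -1.68 ± 0.47 for CDKN1A, so that the combined rise was below the sum, and 1.44 ± 0.33 for CDKN2C, whose combined fall was smaller than the sum (SE; limma, adjusted p = 0.000388, 0.00642, 0.0129, 0.0262 and 0.0121). CDKN1A lost its call without DMSO replicate 1 or 2, L+G replicate 1 or Luteolin replicate 2 (adjusted p = 0.0722, 0.0715, 0.0663 and 0.0834) and with no filter on dim probes (0.0545), and without scaling CDKN1A and CDKN2C lost theirs (0.134 and 0.0544). Under the file names CDKN1C was at 0.03 and CDKN3 at 3.31 (adjusted p = 0.959 and 0.000161), CDKN2A and CDKN2C lost their calls (adjusted p = 0.201 and 0.075), CDKN2D was called at -1.25 (adjusted p = 0.0115), and CDKN1A and CDKN2B stayed below 0 at -2.26 and -4.87.

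**Figure D4:**
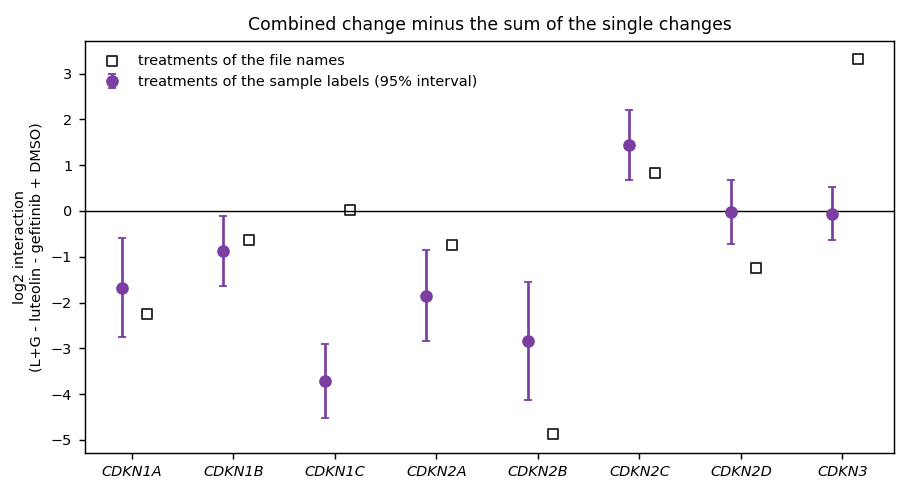
The log2 interaction (vertical axis) is plotted for each gene (horizontal axis) under the sample labels, with 95% intervals, and under the file names as open squares. CDKN1C moves from -3.71 to 0.03 and CDKN3 from -0.06 to 3.31 between the namings, and CDKN2B lies below 0 under both.

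The 0 h arrays gave the comparison that the study's design names. With DMSO against 0 h, limma called 0 of 8 members, beside 0.0355% of all genes tested, and the 1-sample test of the methods also called 0 at an unadjusted p under 0.05 and 2-fold. At that share 0 of 8 does not set the members apart. The median log2 change of the 8 genes was 0.49, against -0.02 over all genes tested. The drug-treated arrays also had DMSO and 24 h, so their changes against 0 h are not those of the drugs alone. By limma 2 members had an unadjusted p under 0.05, CDKN2D at 0.67 and CDKN3 at 0.65 (adjusted p = 0.636 and 0.528). CDKN1A was at -0.54 and the other members lay between 0.09 and 0.66, with the second CDKN2B probe at 1.04 (adjusted p = 0.632). Against 0 h, 6 members rose in the Luteolin arrays (all but CDKN2C and CDKN3), 4 in the Gefitinib arrays (CDKN1B, CDKN1C, CDKN2A and CDKN2B) and 5 in the L+G arrays (all but CDKN1C, CDKN2C and CDKN3), beside 8.26%, 14.5% and 11.5% of all genes. CDKN2B reached 4.52, or 22.9-fold, in the Luteolin arrays (adjusted p = 0.000344). CDKN2C was at -0.83, -0.93 and -0.63, CDKN3 was at -0.97, 0.86 and -0.82, and none of the 8 fell by 2-fold. Leaving out Ctrl replicate 1 brought the 6 to 3 and the 5 to 3, leaving out Luteolin replicate 2 brought the 6 to 3, and leaving out L+G replicate 2 brought the 5 to 3. Without scaling 3, 2 and 1 rose, and CDKN3 in the Luteolin arrays, CDKN2C in the Gefitinib arrays and both in the L+G arrays fell. The medians of all genes against 0 h were then -0.17, -0.80 and -0.77. Under the file names CDKN1A and CDKN2D were not called with both drugs (0.83 and 0.96) nor CDKN1C with luteolin (0.55), and CDKN1A and CDKN2D were called with gefitinib (1.43 and 1.31) and CDKN1C with both (2.42).

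The kinases and cyclins on which the inhibitors act were set beside them. Of 11 CDK and cyclin genes tested, 7, 5 and 4 fell against DMSO in the Luteolin, Gefitinib and L+G arrays, beside 6.17%, 14.3% and 7.69% of all genes, and 0 rose. CCNE2, a cyclin E gene, was not well above background in the Luteolin and Gefitinib arrays and was at least 7.97-fold and 5.61-fold lower there. CCNA2, the cyclin A gene, fell in all of them (-2.97, -2.83 and -1.78). The cyclin B genes also fell in all of them, CCNB1 (-1.94, -1.86 and -2.06) and CCNB2 (-2.13, -1.02 and -2.29). CCNE1 fell (-1.39 and -1.09) in the Luteolin and Gefitinib arrays and was at -0.34 in L+G. CDK1, the mitotic kinase, fell (-2.82 and -1.05) in the Luteolin and L+G arrays and was at -0.78 in Gefitinib. CDK4 and CDK6, the kinases that INK4 proteins bind, were at -0.31 and -0.05 in the Luteolin arrays, 0.98 and 0.38 in the Gefitinib arrays and -0.18 and 0.14 in the L+G arrays, none past the threshold.

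Of 12 pocket protein and E2F genes tested, 5, 4 and 1 fell in the Luteolin, Gefitinib and L+G arrays, beside the same shares, and 1 rose, in Gefitinib, beside 15.6%. The 1 of 12 in L+G is close to the background and the 1 that rose is under it. E2F2 and E2F8 had fitted changes of -5.37 and -4.79 in the Luteolin arrays, where each was well above background on 1 of 2 arrays, and fell (-2.48 and -1.85) in the Gefitinib arrays. E2F1 and RBL1, the gene of p107, fell (-1.85 and -1.73) in the Luteolin arrays. E2F3 and E2F5 fell (-1.49 and -1.46) in the Gefitinib arrays and E2F5 (-1.46) in the L+G arrays. In the Gefitinib arrays E2F1, named after its value was seen, was the 1 that rose, by 1.14. RB1, the retinoblastoma gene, was at 0.10, 0.43 and -0.42, under the threshold.

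Of 17 genes of S phase and mitosis tested, 17, 5 and 9 fell in the Luteolin, Gefitinib and L+G arrays, beside 6.17%, 14.3% and 7.69% of all genes, and 1 rose, TYMS in Gefitinib by 1.15 (named after its value was seen), beside 15.6%. The median log2 changes were -2.11, 0.12 and -1.04, and those of all genes 0.08, 0.22 and 0.16. RRM2, a subunit of ribonucleotide reductase (-4.69 and -1.34), and AURKB, a mitotic kinase (-2.75 and -1.27), fell in the Luteolin and L+G arrays and were at 0.14 and -0.23 in Gefitinib. TOP2A, a topoisomerase of dividing cells, fell (-2.80, -1.38 and -2.67) in the Luteolin, Gefitinib and L+G arrays. AURKA (-1.99, -2.84 and -2.19) and PLK1 (-2.27, -1.07 and -2.62), mitotic kinases too, fell in the same 3 groups. PCNA, the replication clamp, fell (-1.43 and -1.21) in the Luteolin and Gefitinib arrays and was at -0.69 in L+G. MKI67, the Ki-67 gene, was at -3.37, -1.55 and -1.77, and well above background on 1 of 2 Luteolin arrays. CDKN3 stood at -1.62, 0.21 and -1.48 in the same groups, and CDKN2C at -1.14, -1.23 and -0.93.

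**Figure D5:**
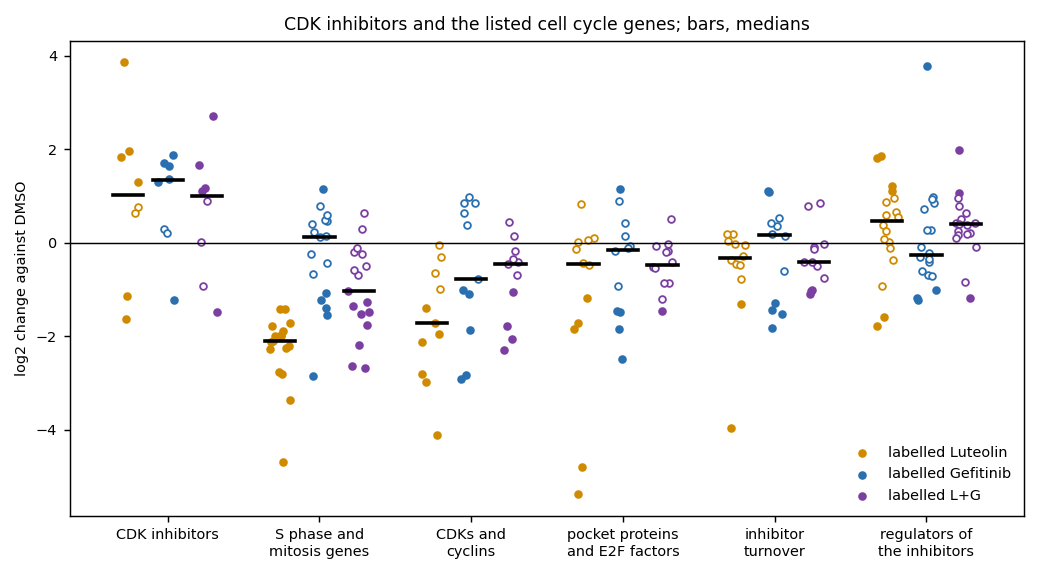
The log2 change against DMSO (vertical axis) is plotted for each gene of the listed groups (horizontal axis) in the 3 drug-treated groups, with filled points past the threshold and bars at the medians. All 17 S phase and mitosis genes lie below -1 in the Luteolin arrays, where the median of the CDK inhibitors is 1.03.

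Of 18 tested regulators of the inhibitor genes, 4, 1 and 2 rose and 2, 3 and 1 fell in the Luteolin, Gefitinib and L+G arrays. Of all genes 7.22%, 15.6% and 12.1% rose and 6.17%, 14.3% and 7.69% fell, so that the counts in Gefitinib and L+G lie close to or under the background. KLF6, a zinc finger factor known to activate CDKN1A, rose in all of them, by 1.81, 3.78 and 1.98. FOXO4 rose by 1.86, KLF4 by 1.21 and FOXO1 by 1.10 in the Luteolin arrays, while FOXO1 and KLF4 fell (-1.22 and -1.01) in the Gefitinib arrays. FOXO3 rose by 1.06 in the L+G arrays. SMAD3, a mediator of TGF-beta signals, and EZH2, the Polycomb methyltransferase known to silence the INK4 locus, fell (-1.79 and -1.58) in the Luteolin arrays. SP1 (-1.18) fell in the Gefitinib arrays and TGFBR2, a TGF-beta receptor gene (-1.19), fell in the L+G arrays. MYC, a repressor of CDKN2B and CDKN1A, was at -0.37, -0.71 and 0.51, under the threshold.

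Of 12 genes for the breakdown of the inhibitor proteins, 2, 4 and 3 fell and 0, 2 and 0 rose in the same order, beside the same shares of all genes. The 2 that rose in Gefitinib are close to the background. SKP2, the ubiquitin ligase subunit that recognises p27, fell (-1.31 and -1.82) in the Luteolin and Gefitinib arrays, and DTL, the subunit that recognises p21, fell there too (-3.96 and -1.28). CKS2 (-1.53) and CUL1 (-1.43) fell in the Gefitinib arrays, where SKP1 and CKS1B, named after their values were seen, were the 2 that rose, by 1.11 and 1.08. CKS2 (-1.02), COPS5 (-1.10) and CUL4B (-1.01) fell in the L+G arrays. Protein levels were not measured on these arrays.

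Over the 10 arrays the members fell into an order of likeness, given as a description of arrays that share groups and scaling. CDKN1B and CDKN2A were most alike (Pearson r = 0.926), then CDKN1A and CDKN2B (0.898), and CDKN2A and CDKN2C were most opposed (-0.939). Among 11068 genes well above background on all arrays, those most like CDKN2B were TMEM30A, KLC4 and TEKT4 (r = 0.992, 0.985 and 0.982), and those most like CDKN3 were OPA1, PTTG1 and CCDC34 (0.984, 0.982 and 0.981). PTTG1 is the gene of securin, a mitotic protein. Those most like CDKN2C included ASPM and PHACTR3 (0.990 and 0.982), and ASPM encodes a spindle protein. The nearest genes for the other members were RETSAT, YARS1 and PCED1B for CDKN1A (0.973, 0.969 and 0.969), SURF1, VPS37D and CHMP1B for CDKN1B (0.988, 0.987 and 0.987), FBXO7, MAN1A1 and ZFAND2B for CDKN1C (0.976, 0.963 and 0.963), CRIP2, CLCN6 and PRDX5 for CDKN2A (0.989, 0.988 and 0.988), and NDRG1, ZSWIM9 and SUDS3 for CDKN2D (0.967, 0.950 and 0.948).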

How the data were processed

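Total RNA of PC-3 cells was labelled with Cy3 and hybridised to Agilent whole human genome arrays. Per the file headers (Feature Extraction 10.7.3.1, hg18, where the methods name another version), the authors deposited the processed signal intensity, which is background-subtracted and not normalized between arrays. The series table held the same signal on all 45015 spots of each array, within a tolerance of 1e-04. Columns of per-sample values not used numbered 0. In R 4.3.3 with limma 3.58.1, outlier spots were left out, spots of a probe were averaged on log2, and each array's 75th percentile was subtracted. Probes were kept when well above background, in at least 50% of spots, on both arrays of at least 1 group (28776 of 41000). A gene was represented by its brightest kept probe. One limma fit over the 5 groups had 5 residual and 3.36 prior degrees of freedom, with Benjamini-Hochberg adjustment over all kept probes. Calls needed an adjusted p under 0.05 and at least 2-fold, and for the interaction the adjusted p alone. The analysis was tested on simulated data.

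The arrays lay on 3 slides. Gefitinib replicate 2 shared its slide with Ctrl (0 h) replicate 1 alone, so its comparison with DMSO crosses slides. The fit had no replicate block, since the labels do not say that a number marks a shared culture or day. The number of arrays limits the precision.

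Named were all 8 members with every probe and the 3 genes most like each member. From each list, the genes with the largest change past the threshold against DMSO were named (up to 4 for each list and group). For some of these, values in other groups are given whether or not they passed. Some genes were named beyond this rule, among them CDK4, CDK6, RB1, MYC, MTAP and ELAVL2, none of which passed against DMSO. The members, lists and motifs were chosen with earlier results of these data known. Promoters are RefSeq windows of GRCh38.p14, 35116 in all. CDKN1C had none there. Listed genes not kept or not named on the array (CCND2, TP63, TP73, PTPRC, DCN and CDKN2B-AS1 among them) were not tested. Some listed or alike genes are not reported here. The alternatives tried were normexp with an offset of 50, quantile normalization, the array median, no scaling, no filter, probes above background on every array, the series table, a replicate block, slide as a block, the treatments of the file names, only the groups compared, no minimum fold, the median over probes, the 1-sample test of the methods, and leaving out each array, where a lone array is assumed to vary like the others.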

Additional observations from a re-analysis of the deposited data

Results flagged for a closer look

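With arrays grouped by the sample labels, the limma interaction passed an adjusted p under 0.05 in 5 of 8 members, beside 34.2% of all genes tested. The log2 interaction was -3.71 for CDKN1C, -2.84 for CDKN2B, -1.85 for CDKN2A, -1.68 for CDKN1A and 1.44 for CDKN2C. For CDKN1C the rise of 1.84 and 1.88 with either label alone stands beside 0.01 with L+G, and under the treatments of the file names the interaction is 0.03. For CDKN2B it is negative under both namings, -2.84 and -4.87. CDKN2A and CDKN2C lost their calls under the file names. CDKN1A lost its call with no filter on dim probes and without scaling, among other settings. With groups of 2 arrays, single arrays that stand apart were not tested.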

How the results depend on the processing

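Over 49 results of single members that passed their threshold, 1157 values under other settings were computed, of which 1029 kept their direction and call, 121 lost the call and 7 turned direction. With no minimum fold, a looser rule on the same fit, and with the series table, which held the same signal, no call could be lost. Each of these settings kept 49 of 49, and these values are among the 1029. Under the file names the comparison of all drug-treated arrays with DMSO is unchanged, so its calls could not be lost there either. All 7 turns of direction arose from the treatments of the file names. They were CDKN3 in L+G against DMSO (0.21), in Luteolin against Gefitinib (0.15) and in L+G against Gefitinib (1.83), CDKN2B in Luteolin against Gefitinib (-1.14), and CDKN1C in L+G against Luteolin (1.87), in L+G against Gefitinib (0.036) and in the interaction (0.028). Of the 47 results that did not pass, 26 passed under at least 1 other setting.

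No scaling between arrays was an alternative chosen after seeing that the 75th percentile differed between groups. Without scaling, the median of all genes against DMSO moved to -0.82 for Gefitinib, -0.78 for L+G and -0.64 for all drug-treated arrays. Members called were then 1 for Gefitinib and 3 for L+G against DMSO (1 rose and 2 fell), 3 for L+G against 0 h (1 rose and 2 fell), 4 for Luteolin against Gefitinib, 3 for the interaction and 3 for all drug-treated arrays against DMSO (1 rose and 2 fell, in place of 5 and 1). For L+G against Luteolin, 1 member was called in place of 2 with no filter on dim probes, with the replicate block and in a fit of only the groups compared. The replicate block changed no other count by over 1.5 times. Whether the replicate numbers pair the arrays was not settled: over 10 pairs of groups the correlation of same-numbered deviations ran from -0.098 to 0.293 with 6 over 0.1, and 4 of 5 arrays numbered 1 lay on one slide and 4 of 5 numbered 2 on another. With no minimum fold, Gefitinib against 0 h gave 7. The 1-sample test of the methods called 1, 2 and 2 members for Luteolin, Gefitinib and L+G against 0 h and 0, 0 and 0 after Benjamini-Hochberg adjustment. The share of all genes called was computed for the main fit only. The counts of members under other settings, or with an array left out, therefore have no background beside them.

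Leaving out each array in turn gave from 4 to 6 members called for Luteolin against DMSO, 4 to 6 for Gefitinib against DMSO and 3 to 6 for L+G against DMSO. It gave 3 to 8 for Luteolin against 0 h, 4 to 6 for Gefitinib against 0 h and 3 to 5 for L+G against 0 h. It gave 1 to 2 for L+G against Luteolin, 2 to 3 for Luteolin against Gefitinib and for L+G against Gefitinib, 4 to 6 for the interaction and 2 to 7 for all drug-treated arrays against DMSO, with the lowest without DMSO replicate 1.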
